A study of Homo sapiens with 6 samples.

Results

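The genes described here are 4 long-chain acyl-CoA synthetases (ACSL1, ACSL3, ACSL4 and ACSL5) and 6 acyl-CoA thioesterases (ACOT1, ACOT2, ACOT7, ACOT8, ACOT9 and ACOT13). They were picked by symbol and make up 10 of the 23152 genes with deposited read counts. Their mRNA was measured by RNA-seq in T24 cells, an established human bladder cancer line, in 3 samples carrying an empty vector (vector) and 3 samples overexpressing RNF112 (oeRNF112), an E3 ubiquitin ligase. The comparison addresses what changes in bladder cancer cells when RNF112 is raised. All samples were grown in RPMI medium with fetal bovine serum and transfected with a lipid reagent. The labels' protocol names siRNA for every sample, whereas the group labels name vector and oeRNF112, and no siRNA target is given. RNF112 itself had 27, 19 and 24 counts in vector and 29753, 36963 and 31712 counts in oeRNF112, which goes with the group labels, although reads from the introduced construct may be among them. No source used here says that the replicates were separate cultures, so the p-values measure only the spread between these samples, which may be technical.

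A free fatty acid has to be joined to coenzyme A before a cell can burn it, store it as triglyceride or build it into membranes. Long-chain acyl-CoA synthetases (ACSL) make this thioester, and acyl-CoA thioesterases (ACOT) split it back into fatty acid and coenzyme A. The members of both families sit in different compartments and prefer different acyl chains. In tumor cells ACSL4 is best known for loading polyunsaturated fatty acids into phospholipids, a step that favors ferroptosis, and ACSL3 for lipid droplet growth and for activating monounsaturated fatty acids.

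Of the 10 genes, ACSL3 rose and ACOT2 fell in oeRNF112, and the other 8 did not pass the test. ACSL3 was 1.28-fold higher (95% interval 1.11 to 1.48) and ACOT2 was at 0.678 of its vector level (95% interval 0.538 to 0.855). The test was edgeR's quasi-likelihood test with Benjamini-Hochberg adjustment over the 14467 genes that passed its filter on low counts, all 10 members among them, and a gene was called at an adjusted p under 0.05. This put 20% of the members past the threshold, beside 18.1% of all genes tested, where 9.97% (1442 genes) were higher and 8.14% (1178 genes) lower. With library totals in place of TMM factors the split was 2020 higher and 659 lower, with the calls of ACSL3 and ACOT2 kept. The median log2 fold change was -0.05 over the 10 members and 0.00267 over all genes tested. The groups were fully separate in TMM-normalized level for ACSL3 and ACSL5, which were higher in every oeRNF112 sample, and for ACOT1 and ACOT2, which were lower in every one. Over all genes, 18.9% had separate groups with oeRNF112 higher and 17.9% with oeRNF112 lower. The members' shares were thus near those of all genes.

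**Figure D1:**
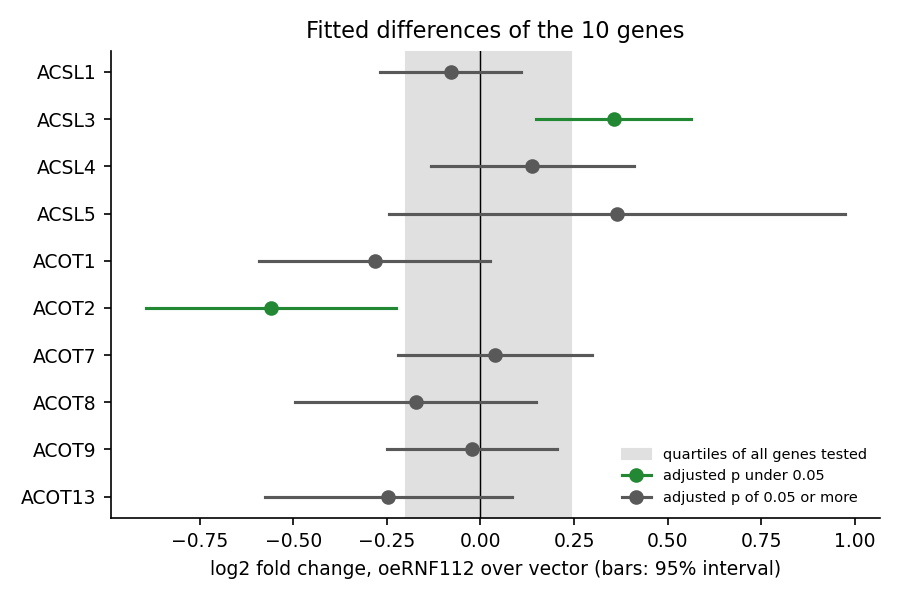
Fitted log2 fold changes (oeRNF112 over vector, x axis) of the 10 genes (y axis), with bars for the 95% interval and a grey band for the quartiles of all 14467 genes tested (-0.2 and 0.241). The bars of ACSL3 and ACOT2, drawn in green, lie clear of 0 on opposite sides, and those of the other 8 genes cross 0.

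ACOT1 and ACOT2 lie beside each other on the same strand of chromosome 14 and are near-identical copies, so reads can be hard to assign to one of them. In GRCh38 with GENCODE 29, ACOT1 spans chr14:73537114-73543794 and ACOT2 spans chr14:73567620-73575658, with 23825 bases between them. Their coding sequences (1263 and 1449 bases) matched at 1250 of 1263 aligned positions, an identity of 98.97%, and the longest stretch without a difference was 466 bases. Of all 100-base windows in the transcript, 33.8% of those in ACOT1 also occurred in ACOT2 and 32.6% of those in ACOT2 also occurred in ACOT1. The transcripts searched had 1713 bases (ACOT1) and 1774 bases (ACOT2). The deposited counts and RPKM imply lengths of 2615 and 1901 bases, so part of the counted sequence was not compared. The following stretch of 60 bases comes from the coding part of exon 1 of 3 in each gene, on the plus strand. It was picked as a stretch of that length within 1 exon with the most differences, so other such stretches hold no more. Capitals mark the 4 bases that differ between the copies.
ACOT1, chr14:73537784-73537843: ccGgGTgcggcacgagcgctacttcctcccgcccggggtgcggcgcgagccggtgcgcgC
ACOT2, chr14:73569789-73569848: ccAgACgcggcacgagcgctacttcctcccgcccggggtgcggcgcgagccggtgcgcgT

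For the 2 genes that passed the test, RefSeq promoter windows (GRCh38.p14, 250 bases before the start and 50 from it, both on the plus strand) follow, with the last 50 bases in capitals. The ACSL3 window holds 74% G and C and 41 CpG dinucleotides. The ACOT2 window, the first of its RefSeq windows, holds 45% G and C and 3 CpG dinucleotides, and its second window, which overlaps the first, holds 53.7% G and C. The median over all RefSeq promoters was 58.7% G and C.
ACSL3, chr2:222860786-222861085: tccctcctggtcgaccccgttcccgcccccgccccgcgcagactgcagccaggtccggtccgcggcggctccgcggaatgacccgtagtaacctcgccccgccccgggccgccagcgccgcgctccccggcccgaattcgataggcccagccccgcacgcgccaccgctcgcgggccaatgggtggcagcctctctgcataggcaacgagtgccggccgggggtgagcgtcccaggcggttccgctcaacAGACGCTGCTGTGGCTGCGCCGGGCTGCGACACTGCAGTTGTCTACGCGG
ACOT2, chr14:73568809-73569108: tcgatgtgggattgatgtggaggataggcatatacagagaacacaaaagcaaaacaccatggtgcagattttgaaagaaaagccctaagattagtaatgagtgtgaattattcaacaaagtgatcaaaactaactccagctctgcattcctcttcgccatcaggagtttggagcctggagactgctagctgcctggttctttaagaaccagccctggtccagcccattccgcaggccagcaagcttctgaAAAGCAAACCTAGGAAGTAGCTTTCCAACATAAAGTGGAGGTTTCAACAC
Promoter windows were found for 9 of the 10 genes, 18 windows in all, and were searched on both strands for 4 sets of letters. The MYC E-box CACGTG, held by 7.26% of 35116 promoters, was in none of the 18 windows. The PPAR element, a direct repeat of AGGTCA with 1 base between, was held by 0.0228% of promoters and by none of the 18. The SREBP element TCACNCCAC, held by 1.13% of promoters, was in 1 window of ACSL1. TATAAA, held by 11.5%, was in 1 window each of ACSL1 and ACOT7.

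The 10 genes were expressed over a wide range. Levels are compared between genes as RPKM, which divides reads by gene length and by the total of the sample. In vector, ACOT7 had the highest mean, at 62.1 RPKM and above 93.1% of the genes tested. ACOT9 (30.3), ACSL4 (29.3), ACSL3 (18.02), ACOT8 (16.3) and ACSL1 (13.3) followed. ACOT2 stood at 6.86 RPKM, ACOT1 at 1.99, ACOT13 at 1.32 and ACSL5 at 0.185, the last above only 9.15% of the genes tested. The vector samples of ACOT9 and ACSL4, of ACSL3 and ACOT8, and of ACOT8 and ACSL1 overlapped in range, so these neighbours cannot be ordered, while all other neighbours were separate.

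**Figure D2:**
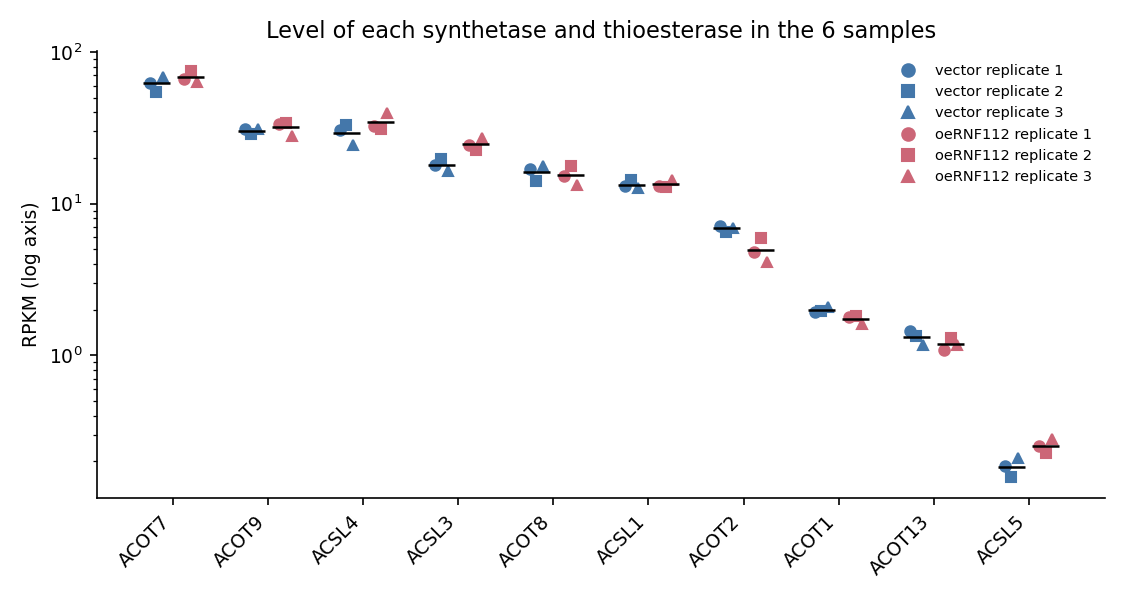
RPKM of each gene (log y axis) in the 6 samples, ordered by the vector mean, with blue for vector, red for oeRNF112, a marker shape for each replicate number and a black line for the group mean. The red points of ACSL3 lie above all blue ones, and those of ACOT2 below, while the order of the genes runs from ACOT7 at 54.6 to 74.8 RPKM down to ACSL5 at 0.157 to 0.282 RPKM.

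Among the synthetases, ACSL3, an enzyme of the endoplasmic reticulum and of lipid droplets, was the one that passed the test. Its gene spans chr2:222860934-222944639 on the plus strand. It had 4127, 4421 and 3720 counts in vector and 5451, 5069 and 6077 in oeRNF112. After TMM normalization these were 104, 111 and 96.4 CPM (counts scaled to the size of the library) in vector and 132, 123 and 144 CPM in oeRNF112, so the lowest oeRNF112 sample lay above the highest vector sample. The log2 fold change was 0.36 (SE 0.0930, adjusted p = 0.0270 from edgeR). Leaving out 1 sample at a time kept the log2 fold change between 0.30 and 0.42, and the call was lost without vector replicate 1 (adjusted p = 0.0980), vector replicate 3 (0.0690), oeRNF112 replicate 1 (0.0913) or oeRNF112 replicate 3 (0.106).

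ACSL4, the arachidonate-preferring synthetase, had more mRNA than ACSL3 in every sample but did not pass the test. Its gene spans chrX:109624244-109733403 on the minus strand. Its TMM-normalized values were 173, 179 and 137 CPM in vector and 169, 167 and 203 CPM in oeRNF112. The lowest and the highest value belonged to vector replicate 3 and oeRNF112 replicate 3, and of the other 4 samples the 2 of vector lay above the 2 of oeRNF112, opposite to the fitted difference. The log2 fold change was 0.14 (95% interval -0.13 to 0.41, adjusted p = 0.461 from edgeR).

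ACSL1, which serves both triglyceride synthesis and fatty acid oxidation, had 63.9, 67.5 and 61.9 CPM in vector and 59.4, 59.7 and 63.9 CPM in oeRNF112. The groups overlapped, the log2 fold change was -0.08 (95% interval -0.27 to 0.11, adjusted p = 0.547 from edgeR), and its sign depended on the scaling (0.0143 with library totals). The gene spans chr4:184755595-184826818 on the minus strand. ACSL5, a synthetase of mitochondria and endoplasmic reticulum that is abundant in intestine, was barely expressed, with 29, 24 and 32 counts in vector and 38, 35 and 43 in oeRNF112. Every oeRNF112 sample was above every vector sample, yet at this depth the log2 fold change of 0.36 carried a 95% interval from -0.24 to 0.97 (adjusted p = 0.382 from edgeR). It lies at chr10:112374018-112428380 on the plus strand. ACSL6, a synthetase of brain and the remaining ACSL gene in the table, had 1 count in each vector sample and 1, 7 and 8 in oeRNF112, too few to be tested.

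The 2 type I thioesterases, which share a fold and differ in location, were ACOT1 in the cytosol and ACOT2 in the mitochondrial matrix. ACOT2 had 555, 504 and 534 counts in vector and 363, 460 and 318 in oeRNF112. As TMM-normalized values these were 14.03, 12.6 and 13.8 CPM in vector and 8.76, 11.2 and 7.51 CPM in oeRNF112. The groups were separate, with oeRNF112 replicate 2 nearest to vector. The log2 fold change was -0.56 (SE 0.150, adjusted p = 0.0299 from edgeR). With each sample left out in turn it stayed between -0.72 and -0.44, and the call was lost without vector replicate 1 (adjusted p = 0.117), vector replicate 3 (0.0668), oeRNF112 replicate 1 (0.106) or oeRNF112 replicate 3 (0.0946).

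ACOT1 had 208, 207 and 220 counts in vector and 188, 193 and 171 in oeRNF112. Its values were separate between the groups as well, at 5.26, 5.18 and 5.70 CPM against 4.54, 4.70 and 4.04 CPM. The log2 fold change of -0.28 (95% interval -0.59 to 0.03) did not pass the test (adjusted p = 0.186 from edgeR). Because of the shared sequence shown above, reads of one copy may have been counted on the other or dropped, and the split between ACOT1 and ACOT2 is uncertain. ACOT4, a peroxisomal relative, had 121, 128 and 186 counts in vector and 187, 189 and 145 in oeRNF112, with a log2 fold change of 0.18 (adjusted p = 0.589 from edgeR).

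None of the 4 type II thioesterases passed the test. ACOT7, a cytosolic enzyme that is abundant in brain, had 153, 129 and 168 CPM in vector and 150, 172 and 140 CPM in oeRNF112, and the groups overlapped throughout (log2 fold change 0.04, 95% interval -0.22 to 0.30). ACOT9, a mitochondrial enzyme, had 140, 126 and 139 CPM in vector and 139, 144 and 116 CPM in oeRNF112, a log2 fold change of -0.02 (95% interval -0.25 to 0.21). Both intervals exclude a difference as large as that fitted for ACOT2, but the sign of neither was stable under the alternatives. ACOT8, the peroxisomal enzyme, had 21.8, 17.6 and 22.7 CPM in vector and 17.999, 21.6 and 15.5 CPM in oeRNF112, with a log2 fold change of -0.17 (95% interval -0.49 to 0.15). ACOT13, a small mitochondria-associated enzyme, had 258, 237 and 204 counts in vector and 188, 230 and 204 in oeRNF112, a log2 fold change of -0.25 (95% interval -0.58 to 0.08). The adjusted p-values from edgeR were 0.843 for ACOT7, 0.907 for ACOT9, 0.433 for ACOT8 and 0.274 for ACOT13. ACOT11 had between 45 and 61 counts in each sample and a log2 fold change of 0.19 (adjusted p = 0.576 from edgeR), and ACOT12 had at most 3 counts in any sample.

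ACOT7 spans chr1:6264269-6394391 and ACOT8 chr20:45841721-45857406, both on the minus strand, and each overlaps another gene on the opposite strand. The overlap with SNX21 takes up 35.3% of the exon bases of ACOT8. An antisense transcript, AL031848.2, takes up 20.3% of those of ACOT7. Percentages of exon bases refer to all exons in the annotation used for positions, 4213 bases in ACOT8 and 4124 in ACOT7. The deposited counts and RPKM imply lengths of only 1229 and 2330 bases, so the overlap within the counted sequence is unknown. Of the 100-base windows in the transcript searched, 12.9% in ACOT8 also occurred in SNX21. In ACOT7, 31.7% also occurred in AL031848.2. The library kit was stranded, but the strand setting of the counting is not given in the sources used here, so the counts of both genes may include reads of these neighbours. ACOT9 lies at chrX:23702253-23766475 on the minus strand and ACOT13 at chr6:24667035-24705065 on the plus strand. Smaller overlaps on the opposite strand were found for ACOT13 (C6orf62 4.67% and AL031775.1 7.62% of exon bases). The same held for ACSL5 (ZDHHC6 3.40% and AL157786.1 5.29%), which has few counts, and for ACSL3 (AC013476.1 1.41%). ACSL4 shares 1.22% of its exon bases with KCNE5 on the same strand. Counts of these genes may include reads of their neighbours as well.

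The make-up of each family was compared as the share of each gene in the summed RPKM of its family, a measure that does not depend on the scaling between samples. ACSL3 made up 28.97%, 29.3% and 30.8% of ACSL in vector and 34.8%, 33.5% and 33.3% in oeRNF112, a mean of 29.7% ± 0.987 against 33.9% ± 0.782 (SD, n = 3 each). The share of ACSL1 was lower in oeRNF112, at 18.6% ± 0.835 against 22.0% ± 1.37 in vector. Its own level was not, with means of 13.3 RPKM in vector and 13.5 RPKM in oeRNF112 and overlapping groups. The share of ACSL4 was 48.0% ± 2.42 in vector and 47.2% ± 1.29 in oeRNF112 with overlapping groups. Summed ACSL was 61.9, 66.8 and 53.7 RPKM in vector and 70.2, 66.9 and 81.0 RPKM in oeRNF112, where the nearest samples of the groups almost touched. Unlike the shares, the sums depend on the scaling: divided by the TMM factors, summed ACSL was 64.6, 67.6 and 56.1 in vector and 67.8, 65.9 and 77.2 in oeRNF112, with overlapping groups. The difference in summed ACSL (oeRNF112 minus vector) was 11.9 RPKM as deposited, 7.55 after division by the TMM factors and 7.75 without oeRNF112 replicate 3.

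ACOT2 made up 5.83%, 6.09% and 5.46% of ACOT in vector and 3.88%, 4.40% and 3.73% in oeRNF112 (means 5.79% ± 0.316 and 4.004% ± 0.354, n = 3 each). ACOT7 made up 52.2% ± 1.62 in vector and 55.3% ± 1.21 in oeRNF112, and the groups were separate. Within the ACOT1 and ACOT2 pair, the share of ACOT2 was 78.6%, 77.0% and 77.0% in vector and 72.6%, 76.6% and 71.9% in oeRNF112. Of 14 such shares and sums in RPKM as deposited, 9 had separate groups. These were summed ACSL, the shares of ACSL1, ACSL3, ACOT1, ACOT2, ACOT7 and ACOT8 in their families, that of ACOT2 in its pair with ACOT1, and that of ACSL3 in its pair with ACSL4. For each of these 9, the exact two-sided permutation test gave p = 0.1, the smallest that 3 against 3 samples allow. After adjustment over the 14 it was 0.156, so that none could pass the threshold. The 14 are tied to one another, since shares within a family depend on each other. Some separations were narrow, with nearest vector and oeRNF112 samples at 13.1221% and 13.1176% for ACOT8. They were at 53.97% and 54.23% for ACOT7, and at 40.55% and 40.67% for ACSL3 in its pair. Such a count over other gene families was not made. Summed ACOT was 118.8 RPKM in vector and 123.2 RPKM in oeRNF112, with overlapping groups (p = 0.7 by the exact permutation test). Its difference (oeRNF112 minus vector) turned from 4.40 to -3.45 after division by the TMM factors, to -1.24 without vector replicate 2 and to -1.77 without oeRNF112 replicate 2, so that it has no stable direction. It was 8.77 without vector replicate 3 and 10.4 without oeRNF112 replicate 3.

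The samples of both groups also differed in the balance of long and short genes, a measure chosen after the values had been seen. It is the median log2 level of 3561 genes of at least 6000 bases minus that of 1808 genes of at most 2000 bases, each relative to its mean over the 6 samples. It was -0.153, 0.212 and -0.377 in vector replicates 1 to 3 and 0.108, -0.145 and 0.356 in oeRNF112 replicates 1 to 3. The highest ACSL4 and the lowest ACOT8 value belonged to the sample with the highest balance, oeRNF112 replicate 3. The lowest ACSL4 and the highest ACOT8 value belonged to the one with the lowest, vector replicate 3. ACSL3 rose with the balance within each group. In order of rising balance it had 96.4, 104 and 111 CPM in vector and 123, 132 and 144 CPM in oeRNF112. ACOT2 fell in that order in oeRNF112 (11.2, 8.76 and 7.51 CPM) but not steadily in vector (13.8, 14.03 and 12.6 CPM). With the balance as a covariate, in a fit described below, the log2 fold changes were 0.0155 for ACSL4 and -0.0118 for ACOT8. They were 0.138 and -0.173 in the main fit, and 0.121 and -0.0330 with a smooth trend on gene length removed. Neither gene passed edgeR's test in any of these fits. Whether the balance caused any of the results on ACSL3, ACSL4, ACOT2 and ACOT8 was not tested.

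In 3 further fits, also chosen after the values had been seen, ACSL3 and ACOT2 stayed past the threshold of edgeR's test. Without vector replicate 2 and oeRNF112 replicate 3, which deviated together, the log2 fold changes were 0.34 and -0.48 (adjusted p = 0.0285 and 0.0296). With a smooth trend on gene length removed from each sample they were 0.34 and -0.47 (adjusted p = 0.00254 and 0.0114). With the balance as a covariate they were 0.28 and -0.44 (adjusted p = 0.00149 and 0.00807). In that last fit ACOT7 was higher as well, by 0.18 on the log2 scale (adjusted p = 0.0203). The balance and the trend were computed from the same counts that were then tested, and the calls over all genes grew to 4119 and 5030 in these fits, so the smaller p-values are no independent evidence.

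Around these 10 genes, 62 genes of 6 lists were tested, of which 7 were higher, 7 were lower and 48 did not pass edgeR's test. Over all genes tested, 9.97% were higher and 8.14% lower. The counts depended on single samples: the lists had 1 higher and 1 lower gene without vector replicate 1 or without oeRNF112 replicate 3, 1 and 0 without oeRNF112 replicate 1, 2 and 4 without vector replicate 3, and 9 and 12 without vector replicate 2. They also had 8 higher and 3 lower genes with library totals. Of 17 alternatives, the call was lost in 11 for PANK1, 10 for AACS and 9 for RXRA, and in 9 of 16 for SLC27A2. PANK1, AACS and SLC27A2 kept their calls without vector replicate 2 but not without any other single sample, and RXRA kept its call without vector replicate 2 or 3 only. PANK1, AACS and RXRA also lost their calls with library totals (adjusted p = 0.108, 0.0915 and 0.0703) and in both limma fits, and SLC27A2 lost its call with DESeq2 (0.0537). The other calls named in the lists were lost in 2 (ACBD7) to 6 alternatives, except that of ALOXE3, which was kept in all 17, and that of PPARD, whose alternatives were not computed. Among 10 other acyl-CoA synthetases, SLC27A2, a very-long-chain synthetase and fatty acid transport protein, was higher but scarce, with 3, 6 and 5 counts in vector and 15, 16 and 16 in oeRNF112 (log2 fold change 1.64, adjusted p = 0.0299). AACS, which activates acetoacetate, was lower (-0.31, adjusted p = 0.0329). Of 5 other thioesterases, HIBCH, which releases hydroxyisobutyrate in valine breakdown and not a fatty acid, was lower (-0.40, adjusted p = 0.0178) and none was higher.

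Of 10 tested proteins that carry acyl-CoA or fatty acids, ACBD7, an acyl-CoA-binding protein, and SCP2, a peroxisomal thiolase and sterol carrier, were lower (-0.54 and -0.32, adjusted p = 0.0159 and 0.0263 from edgeR), and none was higher. Of 14 genes of coenzyme A supply and breakdown, PANK1, a kinase at the first step of coenzyme A synthesis, was lower (-0.35, adjusted p = 0.0415). The median log2 fold changes of the carriers and of the coenzyme A list were -0.19 and -0.14.

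Of 14 genes in or around polyunsaturated phospholipid remodelling and peroxidation, processes that ACSL4 feeds, 3 were higher and none was lower. Over all genes tested, 9.97% were higher and 8.14% lower. The groups were fully separate for 3 of the 14 in each direction, beside 18.9% (higher) and 17.9% (lower) of all genes tested. The 3 lower ones were LPCAT3, MBOAT7 and AGPAT3, which did not pass (adjusted p = 0.0862, 0.113 and 0.0506 from edgeR). The largest difference was in ALOXE3, an epidermal lipoxygenase, with 68, 60 and 72 counts in vector and 205, 240 and 253 in oeRNF112 (log2 fold change 1.72, adjusted p = 0.000305 from edgeR). SLC7A11, which imports cystine and counters lipid peroxidation, and MBOAT2, an acyltransferase that remodels phospholipids with monounsaturated chains, were higher by 0.64 and 0.35 (adjusted p = 0.0379 and 0.0433). Over the 14 genes the median log2 fold change was -0.11.

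Of 9 fatty acid-sensing receptors and partners, 3 were higher and 2 lower. PPARA, known to drive ACOT1, ACOT2 and ACSL1 in liver, was among the 9 and is named here after its value was seen. It was 1 of the 4 that did not pass the test (log2 fold change 0.12, adjusted p = 0.617 from edgeR). The coactivators PPARGC1A and PPARGC1B were higher (log2 fold changes 1.40 and 0.97, adjusted p = 0.0231 and 0.0300 from edgeR). Both were scarce, with vector means of 0.0748 and 0.171 RPKM, below that of ACSL5. PPARGC1A had 28, 57 and 21 counts in vector and 85, 81 and 130 in oeRNF112. PPARGC1B had 92, 118 and 64 counts in vector and 197, 131 and 239 in oeRNF112. RXRA and RXRB, the partners of PPAR on DNA, were lower (-0.35 and -0.44, adjusted p = 0.0202 and 0.0211). PPARD, named here after its value was seen, was higher (0.29, adjusted p = 0.0407).

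The total counts were between 40029547 and 41259569 in all 6 samples, so depth did not separate the groups, and 3 counts corresponded to at most 0.0749 CPM. The cells had at least 31265 counts of each of KRT7, KRT8 and KRT18 in every sample, keratins of simple epithelium and urothelium, but at most 2 counts of CDH1, TP63, KRT20 and UPK3A in any sample. The summed level of the 14 urothelial and epithelial markers in the table was 3571 to 4586 CPM in vector and 2732 to 3268 CPM in oeRNF112, and KRT7, KRT18 and FOXA1 were lower and EPCAM higher by edgeR's test. The 8 leukocyte markers summed to 9.53 to 10.9 CPM in vector and 5.45 to 8.51 CPM in oeRNF112. LAPTM5 had the highest level among them, with 293, 258 and 231 counts in vector and 215, 108 and 125 in oeRNF112. It was lower by edgeR's test (adjusted p = 0.0308). PTPRC had 54, 37 and 40 counts in vector and 33, 24 and 26 in oeRNF112, and did not pass. CD3E was at 0 in 5 of the 6 samples and at 4 counts in oeRNF112 replicate 3. The 8 fibroblast and endothelial markers summed to 7.08 to 10.1 and 10.7 to 11.7 CPM. Of these, PDGFRA was scarce but higher by edgeR's test (adjusted p = 0.0194), with 1, 3 and 8 counts in vector and 19, 29 and 19 in oeRNF112. The part of these differences in the results on ACSL3 and ACOT2 was not tested, and in bulk RNA a change in the share of some cells and a change of RNA per cell cannot be told apart.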

How the data were processed

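RNA-seq libraries of 3 vector and 3 oeRNF112 samples of T24 cells were grouped by the labels. The authors deposited raw counts of reads per gene and RPKM values, and the submitters' processing notes name Trimmomatic 0.36, featureCounts, Subread 1.5.1 and GRCh38. The aligner, strand setting and annotation are not given in the sources used here. In 23152 of 23152 genes, 1 gene length and the sample total turned the deposited RPKM back into the count (tolerance 0.01 count plus 0.0001 relative), so both tables hold the same measurement.

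Counts were tested with edgeR 4.0.16 in R 4.3.3 (filterByExpr, TMM factors, quasi-likelihood test, Benjamini-Hochberg over all genes tested). SE was computed from the log2 fold change and the F statistic, and 95% intervals from the same fit. Shares were compared with exact permutation tests (scipy 1.17.1). Members and lists were chosen with earlier results of these data known. Named genes are the 10 members, the other ACSL and ACOT genes, RNF112, and up to 4 genes per list with the smallest p among those called. Marker genes are named as a check of the cells. Outside this rule, PPARA, PPARD, LPCAT3, MBOAT7 and AGPAT3 were named after their values were seen. Positions are from GENCODE 29 and promoters from RefSeq (GRCh38.p14).

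Same-numbered samples deviated from their group means with correlations of -0.116, -0.363 and -0.296, so the numbers were not taken to pair samples. Alternatives were DESeq2 1.42.0, its size factors in edgeR, library totals, other filters, limma 3.58.1 on log2(RPKM + 1) and log2(RPKM + 0.1), a replicate block, each sample left out, and 3 fits added after the data were seen. On simulated counts of 14251 genes for this comparison, edgeR recovered 86% of genes changed by 1 on the log2 scale. It recovered 55% of those changed by 0.5, with 5 false among 146 calls. In the simulation few genes differed, and noise was drawn independently for each gene and sample. The real samples had many more calls and deviations shared across genes, so the simulated false calls do not give the error rate here. The limit set by 3 counts covers counting error only.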

Additional observations from a re-analysis of the deposited data

How the results depend on the processing

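ACSL3 and ACOT2 kept their direction under all 17 alternatives and their calls under 12. The 8 other members were not called in any alternative, except ACOT7 with the long-gene balance as covariate, and 3 of them changed sign in small values. The log2 fold change of ACSL1 was 0.0143 with library totals and 0.0135 and 0.0144 with limma on RPKM plus 1 and plus 0.1. That of ACOT9 was 0.0716, 0.0651 and 0.0668 in these 3 fits, 0.0247 without vector replicate 2 and oeRNF112 replicate 3, 0.0613 with the covariate, and between -0.0707 and 0.0706 with 1 sample left out. That of ACOT7 lay between -0.0599 and 0.128 with 1 sample left out.

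With the replicate number as a block, 876 genes were called, 618 higher and 258 lower, with 0 members in either direction and 1 gene of the other lists higher and 0 lower (ACSL3 adjusted p = 0.168, ACOT2 0.0961). Every pair correlated below 0, so the numbers give no pairing. With 1 sample left out, the genes called numbered 1061 (without vector replicate 1) to 3387 (without vector replicate 2), 702 to 1841 higher and 359 to 1546 lower. Members called were 0 to 1 in each direction, and genes of the other lists 1 to 9 higher and 0 to 12 lower.

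The median log2 fold change over all genes was 0.0962 with library totals and 0.00267 with TMM, and library totals left 659 genes lower (75.4% of calls higher, against 55.0% with TMM), with 3 lower genes in the other lists. The limma fits had 669 and 682 genes lower with pseudocounts of 1 and 0.1, and 4 and 3 in the lists (73.6% and 73.8% of calls higher). Without vector replicate 2 and oeRNF112 replicate 3, the lists had 4 lower genes. With the length trend removed 4119 genes were called (2268 higher, 1851 lower) and 11 genes of the lists were lower. With the covariate 5030 were called (2440 higher, 2590 lower), with 2 members higher and 12 genes of the lists lower. The cause of these shifts was not tested. Low counts limit ACSL5, ACSL6 and ACOT12.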
